A study of Mus with 10 samples.

Results

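Signal transducers and activators of transcription (STATs) are the transcription factors that carry cytokine signals from receptors at the cell surface to the genome. The 6 genes *Stat2*, *Stat3*, *Stat4*, *Stat5a*, *Stat5b* and *Stat6* were taken by name, with earlier results of these data known, from the 24564 genes of a count table of liver type 1 innate lymphoid cells (ILC1s). All 6 were among the 11463 genes with enough reads to be tested.

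A cytokine brings its receptor chains together, and the Janus kinases (JAKs) bound to those chains phosphorylate each other, the receptor and the STAT that docks on it. Phosphorylated STATs pair through their SH2 domains, enter the nucleus and bind DNA, and the SOCS proteins they induce restrain the same receptors. In group 1 innate lymphocytes, STAT4 acts downstream of IL-12, STAT5A and STAT5B downstream of IL-2, IL-7 and IL-15, STAT3 downstream of IL-6, IL-10 and IL-21, STAT6 downstream of IL-4 and IL-13, and STAT2, with IRF9, downstream of type I interferon. Transcript counts measure how much STAT mRNA the cells held and not how much of the protein was phosphorylated.

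ILC1s are tissue-resident lymphocytes of the innate immune system. They were sorted from the livers of untreated C57BL/6 mice, male or female and 6 to 8 weeks old. *Ncr1+/+* mice carried intact *Ncr1*, the gene of the activating receptor NKp46. In *Ncr1gfp/gfp* mice *gfp* stands in the place of *Ncr1*, so that their cells make GFP in place of NKp46. The study described NKp46 on these ILC1s as negligible, with a small percentage of positive cells. *Ncr1+/+* ILC1s were gated by surface markers that included the NKp46 stain, and in *Ncr1gfp/gfp* ILC1s GFP took the place of that stain, so that gate and genotype cannot be told apart. Each genotype had 5 libraries, and the sources used here do not say how many mice went into each, so the p-values measure the spread between libraries. Whether the transcripts of the STATs, and of the genes that act before and after them, differed between the genotypes was the question of the comparison.

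The libraries held 15796253 to 22623133 counts, and 3 counts corresponded to 0.132 to 0.190 CPM, the unit of all levels given here, in which a gene's counts are scaled to the size of the library with TMM factors. *Ncr1* had 2028 ± 99.9 CPM in *Ncr1+/+* and 259 ± 97.4 CPM in *Ncr1gfp/gfp* ILC1s (SD, n = 5 each). Of 8 ILC1 markers, 7 were in the table, and their summed level was 3987 to 4248 CPM in *Ncr1+/+* and 3970 to 4268 CPM in *Ncr1gfp/gfp* libraries. Within this sum *Il7r* was called lower, and *Itga1*, an integrin gene of tissue-resident cells named after its values were seen, had 732 to 804 CPM in *Ncr1+/+* and 928 to 1011 CPM in *Ncr1gfp/gfp* libraries (log2 fold change 0.32, edgeR adjusted p = 0.000481). The summed level of 7 T cell markers, most of it from *Cd3g*, was 461 to 579 CPM in *Ncr1+/+* and 633 to 835 CPM in *Ncr1gfp/gfp* libraries. All 5 tested markers had higher means in *Ncr1gfp/gfp* ILC1s, *Cd3e* and *Cd8a* were called higher, and *Cd8b1* was near 0 in all 10 libraries. For 7 NK cell markers the ranges were 100.1 to 121 and 137 to 217 CPM, with *Itgam* called higher and *Klra4* at 0 in all 10. For both sums the genotypes did not overlap, and an exact two-sided permutation test gave p = 0.00794 for each, or 0.0317 adjusted over 8 marker lists. Hepatocyte markers summed to 56.3 CPM in *Ncr1gfp/gfp* replicate 3 and 30.6 CPM in *Ncr1+/+* replicate 1 and to at most 5.23 CPM in the other 8 libraries.

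The 6 genes lie in 3 places of the mouse genome. The table names no genome build for its coordinates. Reads were aligned to mm10, but none of the 6 genes started at the same position in the GRCm38.p6 annotation, so the build of the positions given here is not settled. *Stat5b* (chr11:100642045-100711899, minus strand), *Stat5a* (chr11:100720665-100746483, plus strand) and *Stat3* (chr11:100748120-100800854, minus strand) follow each other, with 8765 bases between the first pair and 1636 bases between the second. *Stat6* (chr10:127080042-127098043, plus strand) and *Stat2* (chr10:127707554-127729909, plus strand) are on 1 chromosome, 609510 bases apart. *Stat4* is at chr1:52043992-52164033 on the plus strand. The 3′ end of *Stat6* overlaps that of *Nab2*, an opposite-strand gene that starts at position 127097974, and the library kit kept no strand, so reads from the shared bases cannot be assigned to either gene. *Stat5a* and *Stat5b* encode close paralogs, and their counts rest on the reads that differ between them.

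None of the 6 STAT transcripts passed the test between the genotypes. A gene was called where its adjusted p-value was under 0.05 and its fold change was either above 1.5 or below 0.7. By this rule 0 of the 6 genes were called, beside 84 of all 11463 tested genes (0.733%). At an unadjusted p-value under 0.05, the count was 0 of 6 in edgeR's quasi-likelihood test, its likelihood ratio test, DESeq2 and limma-voom, beside 11.4% of all tested genes in the first of these. An exact two-sided permutation test on CPM gave an unadjusted p = 0.0476 for *Stat6* and 0.0714 or more for the other genes. No share over all tested genes is given for that test. The estimates were small and precise. All 6 intervals of the fold change (95%) lay between 0.7 and 1.5, as did those of 68.5% of all tested genes. The mean was lower in *Ncr1gfp/gfp* ILC1s for 5 genes and higher for *Stat6* alone, with a median log2 fold change of -0.08 over the 6, against 0.00 over all tested genes, of which 49.3% were lower. The CPM of all 6 genes overlapped between the genotypes, and those of 3.11% of all tested genes did not.

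**Figure D1:**
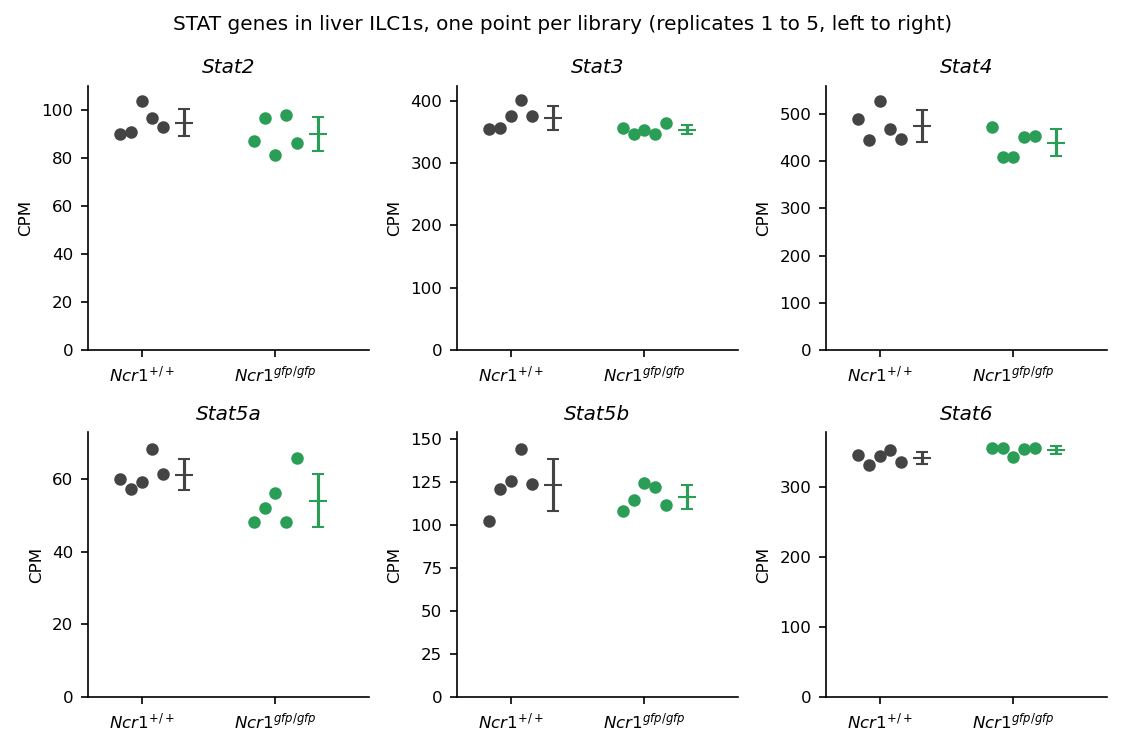
CPM of the 6 STAT genes in each library, with a linear axis from 0 for each gene and the replicates 1 to 5 of each genotype from left to right. Points are libraries, and the bar beside them is the mean ± SD (n = 5). The points of the genotypes overlap for every gene, and the *Stat6* points stay between 331 and 356 CPM.

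*Stat4*, the STAT of the IL-12 response, had 489.7, 444, 526, 467 and 447 CPM in *Ncr1+/+* replicates 1 to 5. In *Ncr1gfp/gfp* replicates 1 to 5 it had 473, 409, 409, 450.3 and 454 CPM. The highest library was *Ncr1+/+* and the lowest pair was *Ncr1gfp/gfp*, with overlap between 444 and 473 CPM. The log2 fold change was -0.11 (95% interval -0.23 to 0.01, edgeR adjusted p = 0.482).

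*Stat5a* and *Stat5b* serve the receptors that share the IL-2 receptor β and γ chains and the IL-7 receptor. *Stat5a* had 60.1, 57.2, 59.4, 68.4 and 61.5 CPM in *Ncr1+/+* replicates 1 to 5. The values were 48.4, 52.2, 56.2, 48.2 and 65.8 CPM in *Ncr1gfp/gfp* replicates 1 to 5. In *Ncr1gfp/gfp* ILC1s, 4 of the 5 libraries were below all *Ncr1+/+* libraries, and replicate 5 was above 4 of them. This was the largest difference of the 6 genes, a log2 fold change of -0.18 (95% interval -0.37 to 0.01, edgeR adjusted p = 0.477). Without *Ncr1gfp/gfp* replicate 5 it was -0.26 (edgeR adjusted p = 0.217). *Stat5b* had 102, 121, 126, 145 and 124 CPM in *Ncr1+/+* replicates 1 to 5 and 108, 115, 124, 122 and 112 CPM in *Ncr1gfp/gfp* replicates 1 to 5. The *Ncr1gfp/gfp* libraries all lay inside the range of the *Ncr1+/+* libraries. Its log2 fold change was -0.09 (95% interval -0.25 to 0.08, edgeR adjusted p = 0.767), and -0.17 without the 2 libraries with the highest hepatocyte marker sums (edgeR adjusted p = 0.395). *Stat5a* made up 41.1% ± 2.31 of the counts per kilobase of the pair in *Ncr1+/+* and 39.4% ± 3.51 in *Ncr1gfp/gfp* ILC1s (SD, n = 5 each), which did not differ beyond the libraries' spread (exact two-sided permutation test, p = 0.317).

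*Stat3*, which carries IL-6 family, IL-10 and IL-21 signals, had 354, 355, 376, 401 and 375 CPM in *Ncr1+/+* replicates 1 to 5. The *Ncr1gfp/gfp* replicates had 357, 347, 352, 347 and 364 CPM. Of the *Ncr1gfp/gfp* libraries, 3 were below every *Ncr1+/+* library, and the other two lay among them. The log2 fold change was -0.07 (95% interval -0.18 to 0.03, edgeR adjusted p = 0.641).

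*Stat6*, the STAT of IL-4 and IL-13, had 345, 331, 345, 353 and 335 CPM in *Ncr1+/+* replicates 1 to 5 and 356, 356, 343, 355 and 356 CPM in *Ncr1gfp/gfp* replicates 1 to 5. Of the *Ncr1gfp/gfp* libraries, 4 exceeded all *Ncr1+/+* libraries, and replicate 3 lay inside their range. In the fit across all genes the log2 fold change was 0.05 (95% interval -0.05 to 0.14, edgeR adjusted p = 0.801). *Nab2*, the overlapping gene, encodes a corepressor of EGR transcription factors and had 68.9 ± 10.5 CPM in *Ncr1+/+* and 77.0 ± 13.8 CPM in *Ncr1gfp/gfp* ILC1s (SD, n = 5 each, log2 fold change 0.16, edgeR adjusted p = 0.666).

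*Stat2*, the STAT of the type I interferon response, had 89.9, 90.9, 104, 96.6 and 92.9 CPM in *Ncr1+/+* replicates 1 to 5. It had 87.3, 96.7, 81.3, 98.1 and 86.5 CPM in *Ncr1gfp/gfp* replicates 1 to 5. Both genotypes spanned the values from 89.9 to 98.1 CPM. The log2 fold change was -0.08 (95% interval -0.22 to 0.07, edgeR adjusted p = 0.784).

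The spread between libraries of a genotype was small for most of these genes. *Stat6* had a coefficient of variation (SD over mean) of 2.53% in *Ncr1+/+* and 1.62% in *Ncr1gfp/gfp* ILC1s, against medians of 12.0% and 12.7% over all tested genes. *Stat3* followed, with 5.10% and 2.01%. *Stat5a* in *Ncr1gfp/gfp* (13.4%) and *Stat5b* in *Ncr1+/+* ILC1s (12.2%) were the most variable. The counts behind these values ran from 762 reads on *Stat5a* in *Ncr1gfp/gfp* replicate 1 to 10535 reads on *Stat4* in *Ncr1+/+* replicate 3.

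Levels were compared between the genes per kilobase of exon, which allows for their exon lengths of 3151 to 5442 bases. *Stat4* was the most abundant, with 151 ± 10.9 CPM per kilobase in *Ncr1+/+* and 139 ± 9.12 in *Ncr1gfp/gfp* ILC1s (SD, n = 5 each), and it ranked 260 of 11463 tested genes by its mean over all libraries. *Stat6* followed with 89.8 ± 2.27 and 92.8 ± 1.498 CPM per kilobase (rank 505) and *Stat3* with 82.3 ± 4.20 and 78.2 ± 1.57 (rank 616). These 3 genes kept the order *Stat4*, *Stat6*, *Stat3* in all 10 libraries, although the ranges of *Stat6* and *Stat3* overlapped in *Ncr1+/+* ILC1s. The other genes were lower. *Stat5b* had 22.7 ± 2.77 and 21.4 ± 1.28 CPM per kilobase (rank 3355), *Stat2* 21.2 ± 1.25 and 20.1 ± 1.60 (rank 3591), and *Stat5a* 15.8 ± 1.09 and 13.9 ± 1.87 (rank 4763). *Stat5a* was the lowest of the 6 in all 10 libraries. *Stat5b* and *Stat2* were not separated beyond their spread, since *Stat2* was the higher in *Ncr1gfp/gfp* replicate 2 and in *Ncr1+/+* replicates 1 and 3.

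The 6 genes summed to 383 ± 16.1 CPM per kilobase in *Ncr1+/+* and 366 ± 10.2 CPM per kilobase in *Ncr1gfp/gfp* ILC1s (SD, n = 5 each), with overlapping ranges. Within that sum, *Stat6* took 24.0, 23.9, 22.5, 23.5 and 23.7% in *Ncr1+/+* replicates 1 to 5. The shares were 25.0, 26.2, 25.5, 25.2 and 24.9% in *Ncr1gfp/gfp* replicates 1 to 5. Every *Ncr1gfp/gfp* library was above every *Ncr1+/+* library. The means were 23.5% ± 0.58 and 25.4% ± 0.53, a difference of 1.87 percentage points. The exact two-sided permutation test gave p = 0.00794, which is as small as this design allows, and 0.0476 after adjustment over the 6 shares. When any 1 library was left out the difference was 1.62 to 1.98 points, and the share no longer passed. A share that alone has the smallest possible p-value then has an adjusted p-value of 0.0952. A share depends on the other 5 genes too, and 5 of the 6 genes had lower means in *Ncr1gfp/gfp* ILC1s. *Stat4* held 37.5 to 41.5% in *Ncr1+/+* and 36.5 to 40.1% in *Ncr1gfp/gfp* libraries, *Stat3* 20.7 to 22.4% and 20.8 to 22.1%, and none of the other 5 shares differed beyond the libraries' spread (exact two-sided permutation tests, adjusted p of 0.508 or more).

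**Figure D2:**
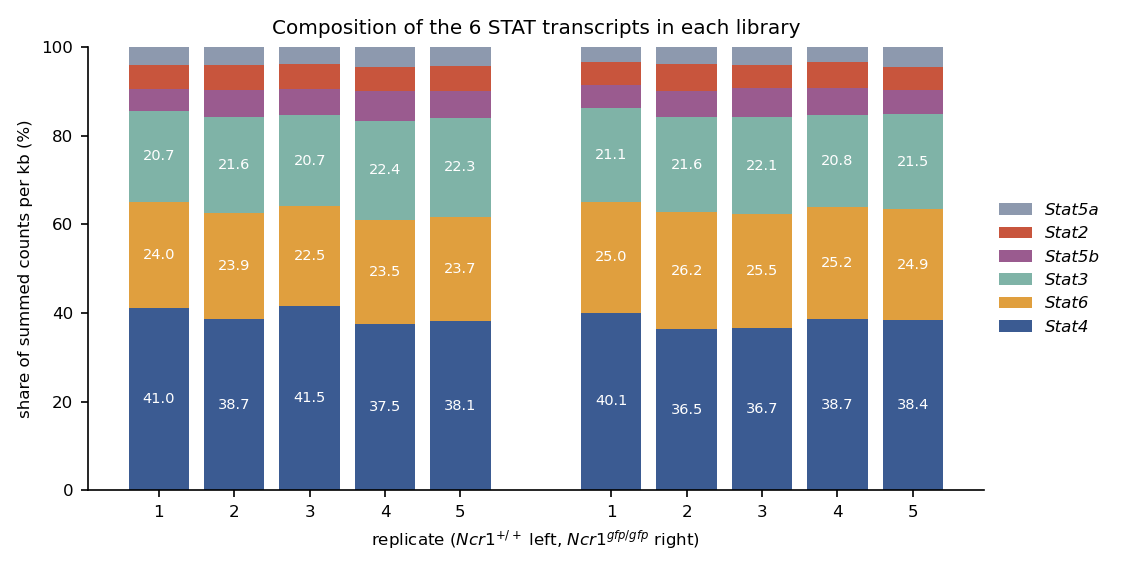
Share of each STAT gene in the summed counts per kilobase of the 6 genes, in percent, for the 5 *Ncr1+/+* libraries on the left and the 5 *Ncr1gfp/gfp* libraries on the right. Each bar is a library and adds up to 100%, and shares over 10% are printed. *Stat6* took 22.5 to 24.0% on the left and 24.9 to 26.2% on the right.

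Ratios between 2 STAT genes of the same library need no scaling between libraries, and 15 pairs were compared. None of the 15 log2 ratios passed after Benjamini-Hochberg adjustment over the pairs. The smallest p-values belonged to *Stat3* over *Stat6* and *Stat4* over *Stat6*, which differed by -0.12 and -0.16 (*Ncr1gfp/gfp* minus *Ncr1+/+*, standard errors 0.03 and 0.05, exact two-sided permutation tests, p = 0.0159 for each, adjusted p = 0.119). Differences over the 15 pairs ran from -0.23 (*Stat5a* over *Stat6*, standard error 0.09) to 0.11 (*Stat3* over *Stat5a*, standard error 0.08). All 15 ratios overlapped between the genotypes.

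For each STAT gene, the 9247 other tested genes with a mean of at least 5 CPM were ranked by the correlation of their log2 CPM with it over the 10 libraries. The libraries contain both genotypes, so a shared difference between genotypes counts towards these values. The genes named are the highest of 9247 over just 10 libraries. A search of this size yields high correlations by itself, and whether these exceed that was not tested. Most like *Stat4* were *Nrip1* (Pearson's r = 0.927, Spearman's rho = 0.903) and *Dcakd* (0.905 and 0.927). *Stat5a* was closest to *Cs*, which encodes citrate synthase (0.926 and 0.976), and *Pvr* (0.925 and 0.879). *Stat5b* was closest to *Usp21* (0.937 and 0.988) and *Ergic3* (0.925 and 0.855). *Stat3* came nearest to *Dyrk2* (0.897 and 0.758) and *Tmem222* (0.875 and 0.830), *Stat2* to *Slc25a38* (0.875 and 0.927) and *Cand1* (0.875 and 0.915), and *Stat6* to *BC017643* (0.944 and 0.830) and *Sdccag8* (0.840 and 0.842). No gene was named for more than 1 STAT gene, and none of these 12 genes was called.

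Around the STATs, the calls over all 10 libraries were downward, and the 1 upward call in any alternative was *Gzmb*, described with the STAT4 targets. The genes that act before and after them were taken from 9 lists of textbook roles with 132 genes, of which 115 were tested and 18 stood on more than 1 list. Of the 115, 8 were called lower in *Ncr1gfp/gfp* ILC1s (6.96%) and 0 higher, beside 0.532% called lower and 0.201% called higher over all tested genes. The lists were chosen with earlier results of these data known, so their share beside the background is no test of the lists. The study had already reported *Il2ra*, *Il7r* and *Il18r1*, which are on them, as lower in these data. Its gene set enrichment analysis of the same RNA placed JAK/STAT3 and JAK/STAT5 signaling among the pathways lower in *Ncr1gfp/gfp* ILC1s. Those gene sets differ from the lists used here and were not tested. By flow cytometry the study also found less phosphorylated STAT5 in *Ncr1gfp/gfp* ILC1s after IL-2 or IL-7. At an adjusted p-value under 0.05 whatever the fold, the background was 1.35%. RNA of bulk-sorted cells cannot tell fewer cells that express a gene from less RNA per cell. The T cell and NK cell marker sums given above were higher in the same libraries, and their part in these results was not tested.

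**Figure D3:**
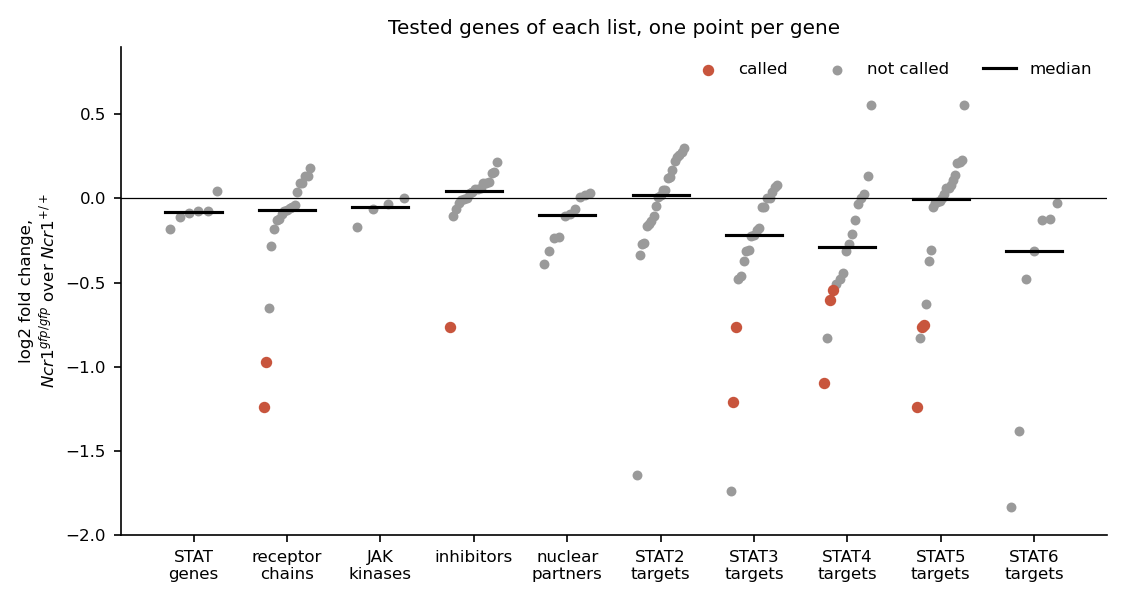
Log2 fold change (*Ncr1gfp/gfp* over *Ncr1+/+* ILC1s) of every tested gene of the STAT family and of the 9 role lists, with 1 point per gene and a bar at each list's median. The 6 STAT points lie between -0.18 and 0.05, and all called points (red) lie below 0.

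Cytokine receptor chains come first in the pathway. Of 23 chains, 19 were tested, and 2 were called, both lower. *Il2ra*, the chain that gives the IL-2 receptor its high affinity, had 33.3 to 47.9 CPM in *Ncr1+/+* and 14.3 to 20.9 CPM in *Ncr1gfp/gfp* libraries. Its log2 fold change was -1.24 (standard error 0.13, edgeR adjusted p = 7.08e-06). *Il7r*, the specific chain of the IL-7 receptor, had 131 to 199 and 45.1 to 135 CPM, with overlap through *Ncr1gfp/gfp* replicate 5 alone. Its log2 fold change was -0.97 (standard error 0.19, edgeR adjusted p = 0.00773), with an adjusted p of 0.0550 in edgeR without the 2 libraries of high hepatocyte marker sums. Both chains feed the STAT5 pair. The third smallest p-value was that of *Il10ra*, the ligand-binding chain of the STAT3-linked IL-10 receptor, with 188 ± 9.65 and 154 ± 16.7 CPM and a log2 fold change of -0.29 that missed the threshold (edgeR adjusted p = 0.0501). Its adjusted p-value was under 0.05 in 8 of 18 alternatives, with a range of 0.00942 to 0.165 by edgeR, DESeq2 and limma-voom, and its fold of 0.821 was not past the limit. The list had 13 genes with lower and 6 with higher means, and its median log2 fold change was -0.07. Low receptors were seen as well. *Il23r*, *Lifr*, *Osmr* and *Il9r* were too low to test, and *Osmr*, the specific chain of the oncostatin M receptor, had no count in any of the 10 libraries, which allows up to 0.132 to 0.190 CPM per library.

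The 4 JAK kinases were all tested and none was called. *Jak2*, which serves the IL-12 receptor, had 568, 531, 594, 521 and 508 CPM in *Ncr1+/+* replicates 1 to 5 and 492, 457, 487, 495 and 494 CPM in *Ncr1gfp/gfp* replicates 1 to 5. Its values did not overlap between the genotypes, but the log2 fold change of -0.17 (standard error 0.05) did not pass over all genes (edgeR adjusted p = 0.129). *Tyk2*, its partner at IL-12 and interferon receptors, had 256 ± 23.1 and 244 ± 13.7 CPM (log2 fold change -0.07, edgeR adjusted p = 0.795). *Jak1*, which serves the receptors with the common γ chain, had 1278 ± 84.4 and 1248 ± 71.7 CPM (log2 fold change -0.03, edgeR adjusted p = 0.872), a direction that turned without *Ncr1+/+* replicate 1. The median of the 4 log2 fold changes was -0.05.

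Among 18 inhibitors, which were the SOCS and PIAS proteins, tyrosine phosphatases and the adaptor gene *Sh2b3*, 1 was called. *Socs3*, which blocks JAKs at receptors that signal through STAT3, had 23.5 to 33.6 CPM in *Ncr1+/+* and 13.8 to 21.2 CPM in *Ncr1gfp/gfp* libraries, without overlap. Its log2 fold change was -0.76 (standard error 0.14, edgeR adjusted p = 0.00404). *Socs2*, a restraint on STAT5 signals, had 95.1 ± 11.7 and 110 ± 5.68 CPM (log2 fold change 0.22, edgeR adjusted p = 0.238). *Ptpn11*, the gene of the phosphatase SHP-2, had 162 ± 10.3 and 181 ± 10.6 CPM (log2 fold change 0.16, edgeR adjusted p = 0.315). Here 12 of the 18 means were higher and 6 lower in *Ncr1gfp/gfp* ILC1s, with a median log2 fold change of 0.05, so *Socs3* stood apart in sign from most of the list.

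None of 10 nuclear partners, all tested, was called. *Irf8*, an interferon regulatory factor, had 137 to 162 CPM in *Ncr1+/+* and 117 to 136 CPM in *Ncr1gfp/gfp* libraries, without overlap (log2 fold change -0.24, standard error 0.06, edgeR adjusted p = 0.0735). *Batf*, an AP-1 factor that binds DNA beside STATs, had 33.0 ± 5.37 and 26.5 ± 4.50 CPM (log2 fold change -0.31, edgeR adjusted p = 0.328). *Jun*, another AP-1 factor, varied widely, from 257 to 805 CPM within *Ncr1+/+* ILC1s alone (log2 fold change -0.39, edgeR adjusted p = 0.489). The median log2 fold change of the list was -0.10.

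Of 16 known targets of STAT4, all tested, 3 were called (18.8%), all lower. *Il18r1*, the ligand-binding chain of the IL-18 receptor, had 134 to 174 CPM in *Ncr1+/+* and 51.5 to 91.3 CPM in *Ncr1gfp/gfp* libraries (log2 fold change -1.10, standard error 0.13, edgeR adjusted p = 5.59e-05). *Il18rap*, the accessory chain of the same receptor, had 368 to 482 and 225 to 344 CPM (log2 fold change -0.60, standard error 0.10, edgeR adjusted p = 0.00145). *Furin*, a protease that processes precursor proteins, had 206 to 304 and 149 to 194 CPM (log2 fold change -0.54, standard error 0.09, edgeR adjusted p = 0.00235), and its fold of 0.687 was so close to the limit of 0.7 that it was not called without *Ncr1gfp/gfp* replicate 3 or without *Ncr1+/+* replicate 4. The values of all 3 genes were separated between the genotypes in every library. At an adjusted p-value under 0.05 whatever the fold, 5 of the 16 were lower and 1 was higher. The others, named after their values were seen, were *Gadd45b* and *Ets1*, which were lower (log2 fold changes -0.51 and -0.21), and *Gzmb*, the gene of the cytotoxic protease granzyme B, which was higher (log2 fold change 0.55, edgeR adjusted p = 0.0139, 0.0225 and 0.00813). *Gzmb* had 1913 to 2227 CPM in *Ncr1+/+* and 2197 to 3962 CPM in *Ncr1gfp/gfp* libraries, and its fold of 1.47 became 1.55 without *Ncr1gfp/gfp* replicate 4 and 1.57 without replicate 5, where it was called higher. By flow cytometry the study found granzyme B protein lower in *Ncr1gfp/gfp* liver ILC1s, the opposite direction to this RNA. The median of the list was -0.29. *Stat4* itself had a log2 fold change of -0.11.

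Of 22 STAT5 targets, all tested, 3 were called, all lower, and 1 of them was *Il2ra*, which is also a receptor chain. *Pim2*, a survival kinase, had 165 to 288 CPM in *Ncr1+/+* and 106 to 139.9 CPM in *Ncr1gfp/gfp* libraries, without overlap (log2 fold change -0.75, standard error 0.11, edgeR adjusted p = 0.000858). *Socs3* was the other called gene. *Pim1*, a kinase of the same family, had 293 to 371 and 233 to 266 CPM, also without overlap, and a log2 fold change of -0.37 that passed the p-value threshold but not the fold threshold (edgeR adjusted p = 0.00186). *Cish*, a feedback inhibitor on this list that was named after its values were seen, had 169 ± 16.2 and 177 ± 36.9 CPM (log2 fold change 0.06, edgeR adjusted p = 0.901). At an adjusted p-value under 0.05 whatever the fold, 4 genes of the list were lower, and *Gzmb*, which is on this list too, was higher. Lower and higher means were equal in number, 11 and 11, and the median log2 fold change was -0.01.

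STAT3 targets had 2 calls among 19 tested genes of 20, *Socs3* and *Fos*, both lower. *Fos*, an immediate early AP-1 gene, had 243, 240.3, 117, 122 and 54.1 CPM in *Ncr1+/+* replicates 1 to 5 and 42.6, 66.05, 45.8, 104 and 77.2 CPM in *Ncr1gfp/gfp* replicates 1 to 5. Replicate 5 of *Ncr1+/+* lay below 3 *Ncr1gfp/gfp* libraries, and the log2 fold change of -1.21 (standard error 0.29, edgeR adjusted p = 0.0377) lost its call with DESeq2, with limma-voom and without any of 7 single libraries. *Maf*, a transcription factor that drives *Il10*, was steadier, with 105 to 136 CPM in *Ncr1+/+* and 82.5 to 94.9 CPM in *Ncr1gfp/gfp* libraries (log2 fold change -0.48, standard error 0.07, edgeR adjusted p = 0.00126), and its fold of 0.718 did not pass the limit. *Junb*, named after its values were seen, and *Pim1* made 5 genes of this list that were lower at an adjusted p-value under 0.05. Means were lower for 14 genes and higher for 5, and the median log2 fold change was -0.22.

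Targets of STAT6 were mostly not expressed. Of 18 genes, 11 were too low to test, among them *Retnla* and *Il24* with no count in any library, and most of the 18 are best known from macrophages and type 2 responses. None of the 7 tested genes was called. *Maf*, shared with the STAT3 list, was the only member with an adjusted p-value under 0.05. *Arg1*, which encodes arginase 1, had 7.56, 8.20, 5.85, 3.78 and 7.89 CPM in *Ncr1+/+* replicates 1 to 5 and 0.00, 2.01, 2.22, 1.72 and 3.33 CPM in *Ncr1gfp/gfp* replicates 1 to 5. The groups did not overlap, and the log2 fold change of -1.83 (standard error 0.49) did not pass over all genes (edgeR adjusted p = 0.0710). *Batf*, on this list too, is described above. All 7 means were lower, with a median log2 fold change of -0.31, while *Stat6* itself had a log2 fold change of 0.05. Kupffer cell or myeloid markers summed to 15.1 to 56.3 CPM in *Ncr1+/+* and 8.50 to 38.3 CPM in *Ncr1gfp/gfp* libraries, with overlap. All 5 of these markers that were tested were lower and none was called, and their part in this list was not tested.

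Interferon-stimulated genes, the targets of STAT2, showed no calls among 21 tested of 22. The smallest p-values were those of *Xaf1*, a gene linked to apoptosis, and of *Ddx58* and *Ifih1*, which encode the RNA sensors RIG-I and MDA5. *Xaf1* had 23.0 ± 3.48 CPM in *Ncr1+/+* and 28.3 ± 4.39 CPM in *Ncr1gfp/gfp* ILC1s (log2 fold change 0.30, edgeR adjusted p = 0.347). *Ddx58* had 279 ± 14.5 and 303 ± 7.80 CPM (log2 fold change 0.12, edgeR adjusted p = 0.348), and *Ifih1* 48.2 ± 4.91 and 57.6 ± 11.3 CPM (log2 fold change 0.26, edgeR adjusted p = 0.353). Means were higher for 12 genes and lower for 9, and the median log2 fold change was 0.02. *Irf9*, the DNA-binding partner of STAT2, had 89.1 ± 11.1 and 90.3 ± 9.66 CPM (log2 fold change 0.02, edgeR adjusted p = 0.965), and was named after its values were seen.

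**Figure D4:**
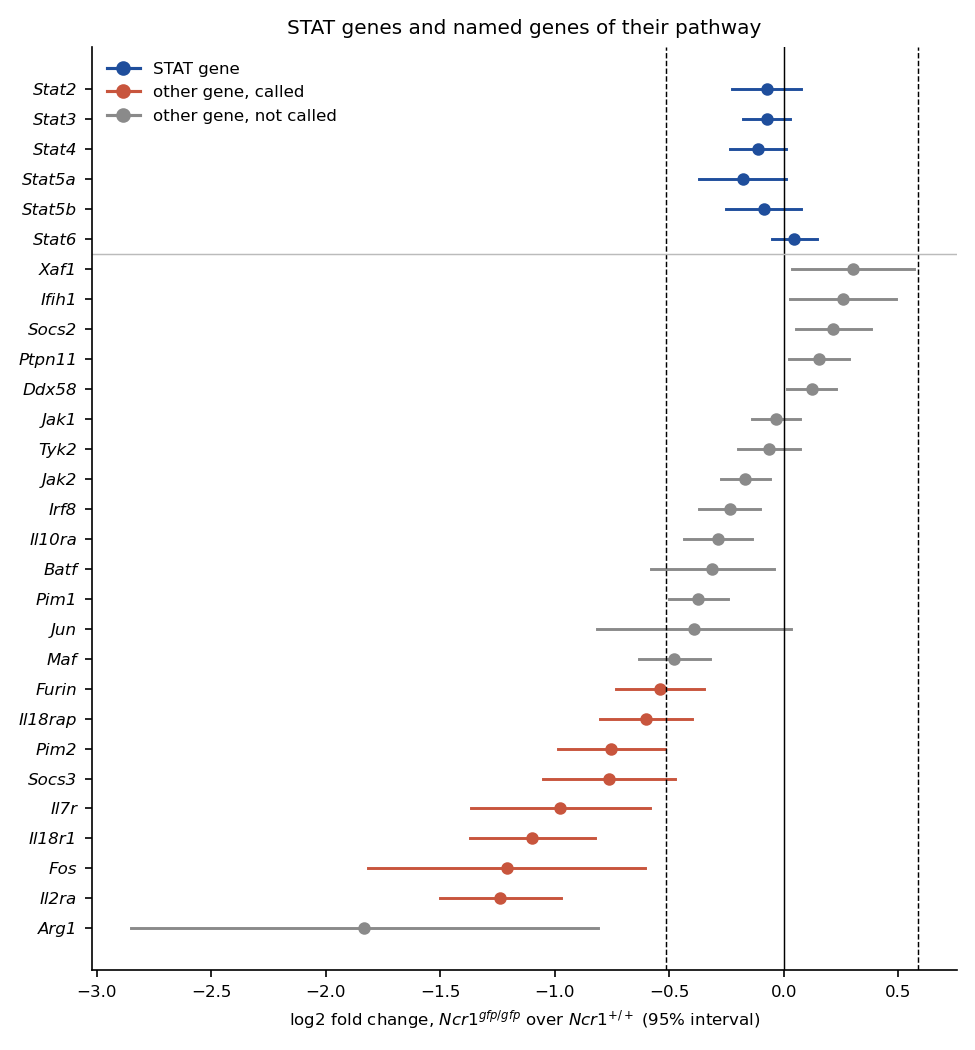
Log2 fold change (*Ncr1gfp/gfp* over *Ncr1+/+* ILC1s) with its 95% interval for the 6 STAT genes (blue) and the 23 named genes of the role lists, called (red) or not called (grey). Dashed lines mark folds of 0.7 and 1.5, and the 6 STAT intervals lie between them, whereas all 8 called genes are left of 0.7.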

How the data were processed

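ILC1s were sorted from liver, RNA was amplified from 2 ng with a polyA-primed kit that keeps no strand, and libraries were read for 51 cycles from 1 end. After trimming, the authors aligned the reads to mm10 with STAR, made gene counts with HTSeq and deposited these raw counts for 24564 genes. Of the table's gene names, 23924 matched a GRCm38.p6 annotation, but just 344 of these had the same start, so the build of the coordinates is not settled and they are given as in the table. Counting with HTSeq drops reads that map to several places, which lowers the counts of near-identical sequences such as parts of *Stat5a* and *Stat5b*.

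Genotypes came from the sample labels. Genes were filtered with filterByExpr and tested on the counts with edgeR 4.0.16 (TMM, quasi-likelihood, Benjamini-Hochberg over 11463 genes; R 4.3.3). Negative binomial models in edgeR with TMM follow the study's methods, the fold limits are 1 of the sets of thresholds it states, and the filter and the quasi-likelihood test were chosen here. Standard errors were derived from the F statistic. CPM used library totals of 15796253 to 22623133 counts multiplied by TMM factors. Ratios, shares, marker sums and the CPM of the STAT genes were tested by exact permutation over libraries (scipy 1.17.1). DESeq2 1.42.0, limma 3.58.1, other filters and normalization, a replicate block and fits without each library were alternatives. The scripts were tested on simulated counts. No pair of libraries within a genotype agreed within sampling noise.

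The genes, the role and marker lists and the tests were chosen with earlier results of these data known. All 6 STAT genes were named, together with every called gene and the 3 genes of smallest p-value of each list, the 2 genes most like each STAT gene, and *Ncr1*. No sequences were used here.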

Additional observations from a re-analysis of the deposited data

Results flagged for a closer look

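Of 88 groups of 5 libraries examined for a library far from the other 4, 7 were flagged, where chance alone would flag about 4.4 (1 in 20). *Stat6* was 343 CPM in *Ncr1gfp/gfp* replicate 3 and at least 355 CPM in the other 4. *Jak2* and *Pim1* were lowest in *Ncr1gfp/gfp* replicate 2, with 457 and 233 CPM against next values of 487 and 259 CPM. *Ifih1* was 77.6 CPM in *Ncr1gfp/gfp* replicate 1 and at most 55.7 CPM in the others. The NK cell marker sum was 121 CPM in *Ncr1+/+* replicate 5, above the next value of 106 CPM. Hepatocyte marker sums were 56.3 CPM in *Ncr1gfp/gfp* replicate 3 and 30.6 CPM in *Ncr1+/+* replicate 1, against at most 5.23 and 5.19 CPM in the other libraries of each genotype. The part of these libraries in the results was not tested beyond the fits that left them out.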

How the results depend on the processing

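No STAT gene was called in any of the 18 alternatives, and all 6 kept their direction in each, with log2 fold changes of -0.11 to -0.04 for *Stat2*, -0.09 to -0.05 for *Stat3*, -0.14 to -0.07 for *Stat4*, -0.26 to -0.14 for *Stat5a*, -0.17 to -0.02 for *Stat5b* and 0.03 to 0.06 for *Stat6*. Their smallest adjusted p-value was 0.217 (edgeR). In these fits an unadjusted p-value under 0.05 was reached by *Stat4* without *Ncr1gfp/gfp* replicate 1 or *Ncr1+/+* replicate 2 or 5. It was also reached by *Stat5a* without *Ncr1gfp/gfp* replicate 5, and by *Stat5b* without the 2 libraries of high hepatocyte marker sums. Over the whole table, the 84 calls became 131 with no filter on low counts, 138 with the likelihood ratio test and 60 to 98 when 1 library was left out. STAT3 target calls went from 2 to 1 with DESeq2, limma-voom and the replicate block, each time by the loss of *Fos*, and were 1 to 3 without 1 library. STAT4 target calls were 2 to 6 without 1 library, with *Furin* lost without *Ncr1gfp/gfp* replicate 3 or *Ncr1+/+* replicate 4, and the 6 reached without *Ncr1gfp/gfp* replicate 4. STAT6 target calls became 1 (*Arg1*) with no filter and with the likelihood ratio test and were 0 to 1 without 1 library. STAT5 target calls were 3 to 4, the added call being *Gzmb*, which was higher without *Ncr1gfp/gfp* replicate 4 or 5 and is also among the STAT4 target calls there. Without *Ncr1gfp/gfp* replicate 3 and *Ncr1+/+* replicate 1, a choice made after seeing the hepatocyte markers, 60 genes were called, receptor chains fell to 1 call (*Il7r* lost, edgeR adjusted p = 0.0550) and STAT3 targets to 1, STAT4 targets had 4 calls (*Gadd45b* added), and the log2 fold change of *Jak1* turned to 0.0065. When 1 library was left out it was -0.064 to 0.00217. The 1 share that passed, that of *Stat6*, became 0 in each fit that left out a library, with a difference of 1.62 to 1.98 percentage points. There the smallest exact p-value, where 1 share alone has it, becomes 0.0952 after adjustment. The ratios and shares whose difference changed sign without 1 library were all near 0, namely *Stat2* over *Stat3* (-0.042 to 0.031), *Stat2* over *Stat4* (-0.016 to 0.073), *Stat2* over *Stat5b* (-0.048 to 0.064), *Stat3* over *Stat5b* (-0.025 to 0.055), *Stat4* over *Stat5b* (-0.10 to 0.046), and the shares of *Stat2* (-0.18 to 0.054), *Stat3* (-0.35 to 0.081) and *Stat5b* (-0.32 to 0.12 percentage points). Replicate numbers are shared by the labels of both genotypes but did not pair the libraries, since the deviations of same-numbered libraries had correlations of -0.02 to 0.04. With the replicate number as a block, 0 STAT genes and 87 genes of the table were called, and the *Stat6* share no longer passed (0 shares, and an exact paired test of 5 pairs cannot go below p = 0.0625). Depth was no limit for the STAT genes, each with at least 762 reads per library, but 17 of the 132 role list genes were too low to test.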
